A study of Mus musculus with 6 samples.

Results

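The genes described here are 38 glutathione transferases, enzymes of glutathione synthesis and antioxidant enzymes of the mouse liver, together with Nfe2l2, which encodes the transcription factor NRF2, and Keap1, its inhibitor. They were chosen by symbol, and all 38 were found among the 23284 genes of the count files. Liver RNA came from 8-week-old C57BL/6 mice, and the labels name no mutant allele or transgene in either group. All had been fasted overnight and stayed fasted for a further 6 h after receiving vehicle (3 mice) or FGF19 at 1 mg/kg (3 mice). FGF19 is a human gut hormone that corresponds to mouse FGF15, so the treated mice received a human protein, at a single dose and a single time, and no group received another protein. The study's methods describe its mice as male. Total counts were between 18994654 and 22920056 per library, and the 38 genes took between 1.31% and 1.62% of them.

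Glutathione is a small thiol that liver cells make in large amounts. Glutathione transferases join it to reactive compounds so that these can be exported, glutathione peroxidases use it to reduce peroxides, and glutathione reductase restores it with NADPH. NRF2 is held in the cytoplasm and degraded through KEAP1. When oxidants or electrophiles modify KEAP1, NRF2 accumulates, pairs with a small MAF protein and binds antioxidant response elements near genes such as Nqo1, Gclm, Txnrd1, Srxn1 and several transferase genes. BACH1 and BACH2 are repressors that bind the same kind of element.

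After FGF19 treatment, the mRNA of 3 of the 38 genes fell and that of 3 rose at an adjusted p under 0.05 (edgeR's quasi-likelihood test, Benjamini-Hochberg adjustment over the 12559 genes tested). The genes that fell were Gsta2 and Gstm4, which encode glutathione transferases of the alpha and mu classes, and Prdx6, a peroxiredoxin that also acts on phospholipids. The genes that rose were Srxn1 (sulfiredoxin, which repairs over-oxidized peroxiredoxins), Hmox1 (heme oxygenase 1) and Sod2 (the manganese superoxide dismutase of mitochondria). Of all genes tested, 2.84% were called lower and 4.56% higher (7.41% in all), against 7.89% and 7.89% of these 38 (15.8% in all). Of the 7543 genes tested with a mean of at least 10 CPM (counts per 1000000 counts of the library), 3.86% were called lower and 5.16% higher. The fitted change was downward in 29 of the 38, against 50.1% of all genes tested and 55.1% of those at 10 CPM or more. The median log2 fold change was -0.25, against -0.00076 over all genes and -0.03 over those at 10 CPM or more. All 38 passed the filter on low counts, so no gene is missing from these counts.

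The transferases carried most of the downward values. Of the 20 transferase genes, 19 had a lower fitted mean with FGF19, with a median log2 fold change of -0.30, whereas the other 18 genes split into 10 lower and 8 higher with a median of -0.05. The lean was not particular to transferases. Of 9 male-biased liver genes outside the 38, 8 were lower and 1 higher (median -0.34). Of 36 other glutathione, thioredoxin and NADPH enzymes tested, 26 were lower and 10 higher (median -0.13). In 14 of the 38 genes the vehicle and FGF19 groups did not overlap and FGF19 was lower, and 9 of these were transferases. Over all genes tested 13.8% showed this, and 18.0% of the genes at 10 CPM or more. In 4 of the 38 the groups did not overlap and FGF19 was higher, where the share was 14.5% of all genes tested and 14.0% of those at 10 CPM or more. In bulk liver, fewer cells of a type and less RNA per cell cannot be told apart. At the study's threshold of p under 0.01, 7 of the 38 were lower (the 3 above with Gstt2, Gsto1, Mgst3 and Gclm) and 3 higher, against 4.98% and 6.20% of all genes tested.

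**Figure D1:**
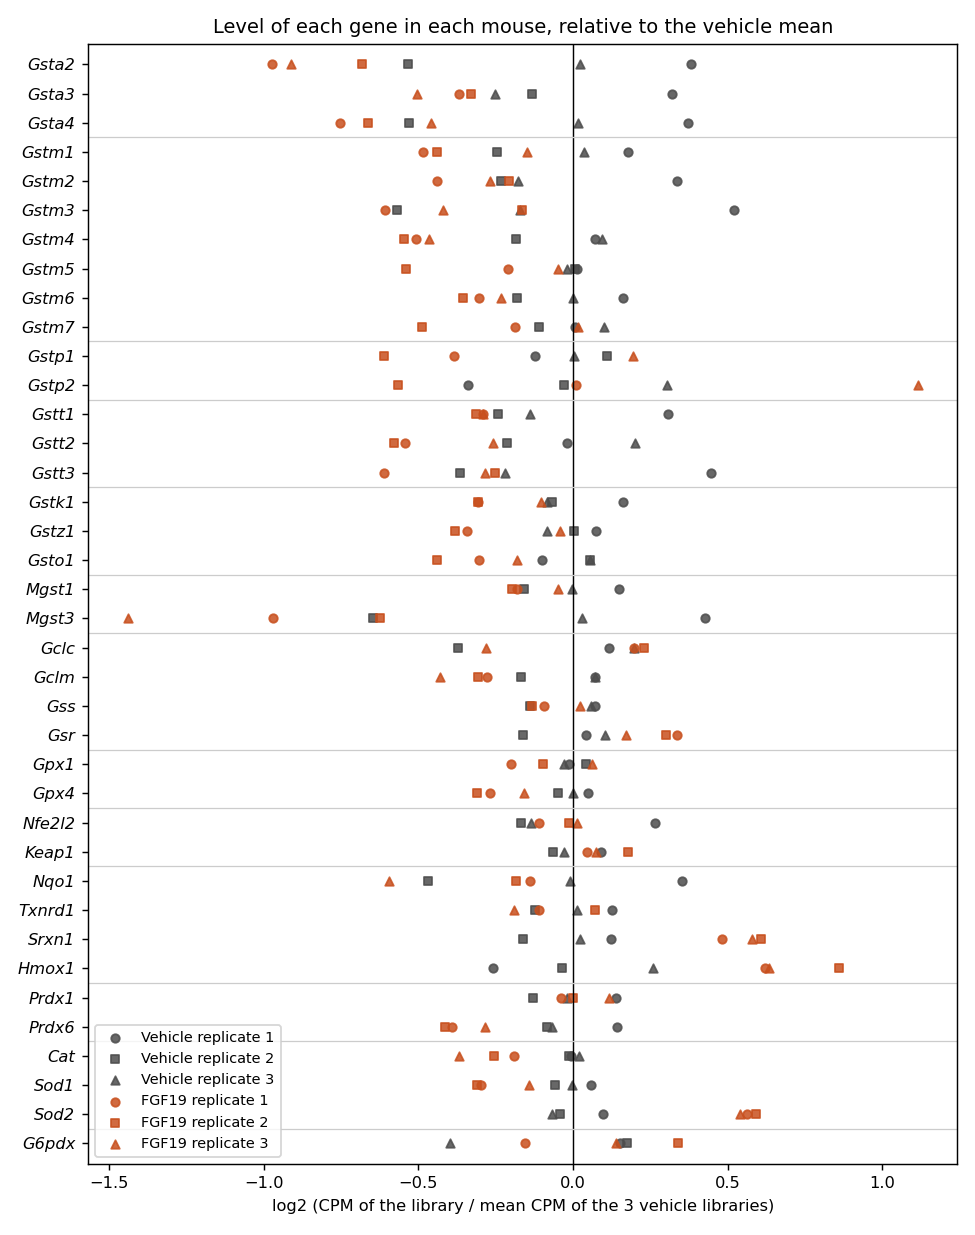
Level of each of the 38 genes in each of the 6 mice, as log2 of its CPM over the mean CPM of the 3 vehicle-treated mice. Grey marks are vehicle and orange marks FGF19, symbols give the replicate number, and horizontal lines separate roles. In 14 genes all orange marks lie left of all grey marks, and in 4 genes (Gsr, Srxn1, Hmox1 and Sod2) all lie right of them.

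The count of lower genes depended on single libraries. It was 0 without vehicle replicate 1, vehicle replicate 3, FGF19 replicate 1 or FGF19 replicate 2 in edgeR's quasi-likelihood test, where between 9 and 13 of the 38 genes were lower at an unadjusted p under 0.05. It was 5 without vehicle replicate 2 and 9 without FGF19 replicate 3, and in the fit of all libraries 15 were lower at an unadjusted p under 0.05. Over all genes tested the count of lower genes also fell, from 357 to 168, 107, 118 and 91, in the 4 fits where 0 of the 38 were called lower, and rose to 926 without FGF19 replicate 3. Without vehicle replicate 2 it fell to 202. With DESeq2 or the likelihood ratio test, on all libraries, the count was 7 of the 38, where 512 of the 16890 genes fitted and 579 of 12559 were lower in all. The median of the 38 was -0.14 without vehicle replicate 1. That mouse had the highest level of the vehicle group in 26 of the 38 genes, and vehicle replicate 2 had the lowest in 27. FGF19 replicate 3 had the highest level of its group in 21 of the 38 genes and in 14 of the 20 transferases, and over all genes its counts stood farther from FGF19 replicates 1 and 2 (chi-square per degree of freedom of 29.7 and 39.4) than these from each other (8.25). The downward direction of the transferases did not turn, since 19 or 20 of the 20 had a lower fitted mean in each of the 6 fits that left out a library.

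Per length of exon, the levels covered a wide range. Levels in RPKM, the CPM divided by the exon length in kilobases, were 3003 ± 319 (SD, n = 3) in vehicle-treated mice for Mgst1, a transferase of the endoplasmic reticulum and mitochondrial outer membrane. Gpx1, the main cytosolic glutathione peroxidase, followed with 1541 ± 41 RPKM (SD, n = 3), and then Cat, Sod1, Gstm1 and Gstp1. In vehicle-treated mice each of the first 5 was above the next in all mice, while the levels of Gstp1, Gsta3 and Prdx1 overlapped those of their neighbours in the order. At the low end were Nqo1 with 5.24 ± 1.47 RPKM (SD, n = 3), Gstp2 with 2.09 ± 0.465 (SD, n = 3) and G6pdx with 1.52 ± 0.318 (SD, n = 3). The first 6 genes kept their order with FGF19, while Sod2 moved from rank 18 to rank 16, Srxn1 from 29 to 19 and Gsta2 from 24 to 30.

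Levels of near-identical genes are uncertain, because the counts hold only reads with a single place in the genome. The share of windows of 100 bases inside the exons that occur at more than 1 place in mm9 was 92.5% for Gstp1 and 92.6% for Gstp2, which are neighbours on chromosome 19. It was 43.5% for Gpx4, 21.1% for Gsta2, 19.0% for Sod2 and 11.1% for Gstm2, and at most 1.40% for each of the others. Levels per length of these genes can therefore be understated. Gstm5, Gstz1 and Prdx1 share 145, 476 and 16 of their exon bases with genes on the opposite strand. Because strand was not used, reads on these bases cannot be assigned to 1 gene. Whether such reads were counted or left out was not checked.

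**Figure D2:**
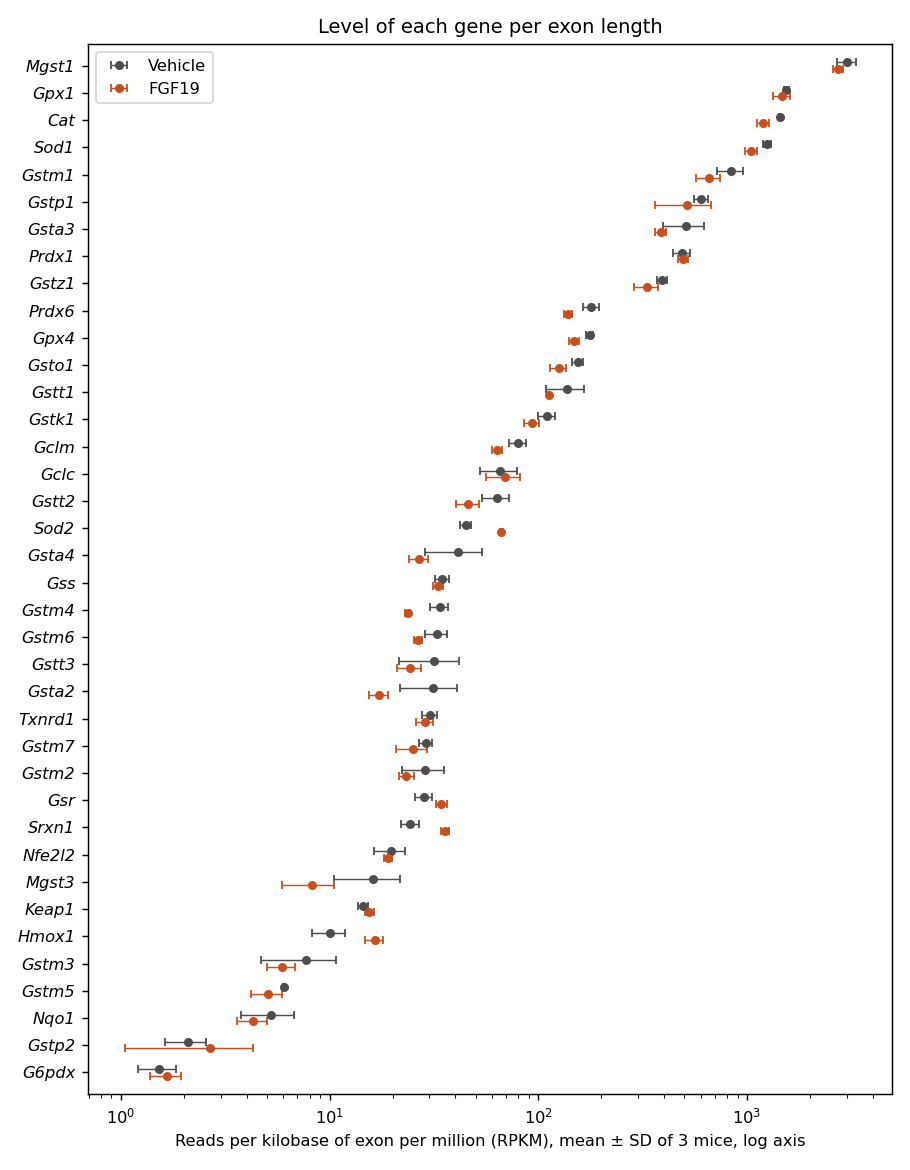
Mean level of each gene in RPKM on a log axis, with SD over 3 mice, in vehicle-treated (grey) and FGF19-treated (orange) mice, ordered by the vehicle mean. Mgst1 is the highest at 3003 RPKM in vehicle-treated mice and G6pdx the lowest at 1.52 RPKM.

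Transferases of the alpha class conjugate glutathione to electrophiles, and Gsta4 prefers the lipid peroxidation product 4-hydroxynonenal. Gsta2 lies on chromosome 9, bases 78178827 to 78194952 of mm9, the build of all gene positions here. It had 34.5, 18.3 and 26.9 CPM in vehicle replicates 1, 2 and 3 and 13.5, 16.5 and 14.1 CPM in FGF19 replicates 1, 2 and 3. The groups did not overlap, but vehicle replicate 2 lay close to FGF19 replicate 2. The log2 fold change was -0.85 (SE, the standard error, 0.202, adjusted p = 0.0349, edgeR), a 1.81-fold lower level. Leaving out any library except vehicle replicate 2 took the adjusted p above 0.05, up to 0.12 without FGF19 replicate 1 (range 0.00086 to 0.12 over all alternatives).

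Gsta3, the most abundant alpha-class gene of the list per length, was at 919, 671 and 618 CPM in vehicle-treated and 570, 585 and 519 CPM in FGF19-treated mice. The groups did not overlap, and the log2 fold change of -0.40 (SE 0.143) did not pass (adjusted p = 0.13, edgeR). Gsta4 was at 39.3 ± 11.9 CPM (SD, n = 3) in the vehicle group and 25.6 ± 2.71 CPM (SD, n = 3) in the FGF19 group, with overlapping groups and a log2 fold change of -0.62 (SE 0.196, adjusted p = 0.0928, edgeR). Gsta1, close in sequence to Gsta2 and not among the 38, had 14, 6 and 11 counts with vehicle and 2, 2 and 4 counts with FGF19. The filter left it out of the fit of all libraries, and without FGF19 replicate 3 it was tested and called lower.

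The 7 genes of the mu class lie next to each other on chromosome 3, between 107698772 and 107847777, and encode cytosolic transferases. All 7 had a lower fitted mean with FGF19, with log2 fold changes between -0.51 and -0.21, and 1 passed the test. Gstm4, from 107843326 to 107847777, was at 59.1, 49.5 and 60.0 CPM in vehicle replicates 1, 2 and 3 and at 39.5, 38.5 and 40.7 CPM in FGF19 replicates 1, 2 and 3. The FGF19-treated mice were close to each other and all below the lowest vehicle-treated mouse. Its log2 fold change was -0.51 (SE 0.0974, adjusted p = 0.0148, edgeR). The adjusted p rose to 0.0594 and 0.0779 when vehicle replicate 1 or 3 was left out, and to 0.0604 and 0.0697 when FGF19 replicate 1 or 2 was (0.000718 to 0.0779 over all alternatives).

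Gstm1, the most abundant mu-class gene, was at 1225, 914 and 1111 CPM with vehicle and at 774, 799 and 977 CPM with FGF19. The groups overlapped because FGF19 replicate 3 was above vehicle replicate 2, and the log2 fold change of -0.35 (SE 0.132) did not pass (adjusted p = 0.150, edgeR). Gstm5 and Gstm6 had no overlap between the groups, with log2 fold changes of -0.25 and -0.30, and neither passed (adjusted p = 0.413 and 0.125, edgeR). Gstm2, Gstm3 and Gstm7 overlapped between the groups.

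The pi-class gene Gstp1, from 4035411 to 4037912 on chromosome 19, was at 412, 485 and 450 CPM in vehicle-treated mice and at 344, 294 and 514 CPM in FGF19-treated mice. FGF19 replicate 3 was above every vehicle-treated mouse, while FGF19 replicates 1 and 2 were below all of them. The log2 fold change was -0.22 (SE 0.181, adjusted p = 0.518, edgeR). Gstp2, at 1.57 ± 0.350 CPM (SD, n = 3) in the vehicle group and 2.01 ± 1.23 CPM (SD, n = 3) in the FGF19 group, was the only transferase of the 20 with a higher fitted mean in the fit of all libraries, and FGF19 replicate 3 at 3.40 CPM set that direction.

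Among the theta class, Gstt2 had 85.2, 74.5 and 99.2 CPM with vehicle and 59.2, 57.8 and 72.1 CPM with FGF19. The groups did not overlap, and the log2 fold change was -0.45 (SE 0.127, adjusted p = 0.0645, edgeR). It passed an adjusted p of 0.05 without vehicle replicate 2 (0.0472) and without FGF19 replicate 3 (0.0183), and its range was 0.0182 to 0.225 over all alternatives. Gstt1 and Gstt3, which lie in the same cluster on chromosome 10, had log2 fold changes of -0.29 and -0.38 that did not pass (adjusted p = 0.224 and 0.296, edgeR).

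Gsto1, of the omega class, reduces dehydroascorbate and arsenic compounds. It was at 167, 186 and 186 CPM with vehicle and at 145, 132 and 158 CPM with FGF19, without overlap. The log2 fold change of -0.31 (SE 0.0949) gave an adjusted p of 0.0876 in edgeR's test, and 0.0231 without FGF19 replicate 3 (0.0231 to 0.313 over all alternatives). Gstz1, which takes part in tyrosine breakdown, and Gstk1, found in mitochondria and peroxisomes, had log2 fold changes of -0.25 and -0.24 (adjusted p = 0.219 and 0.190, edgeR).

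Of the microsomal transferases, Mgst3 had the lowest fitted value of the list. Its levels were 13.7, 6.52 and 10.4 CPM with vehicle and 5.21, 6.62 and 3.76 CPM with FGF19, so that FGF19 replicate 2 was just above vehicle replicate 2. The log2 fold change was -0.98 (SE 0.279, adjusted p = 0.0685, edgeR), and -1.21 without vehicle replicate 2, where it passed (adjusted p = 0.0220, 0.00649 to 0.199 over all alternatives). Mgst1, by far the most abundant gene of the list per length, was at 2831 ± 301 CPM (SD, n = 3) in the vehicle group and 2568 ± 147 CPM (SD, n = 3) in the FGF19 group, a log2 fold change of -0.14 (SE 0.107, adjusted p = 0.487, edgeR).

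**Figure D3:**
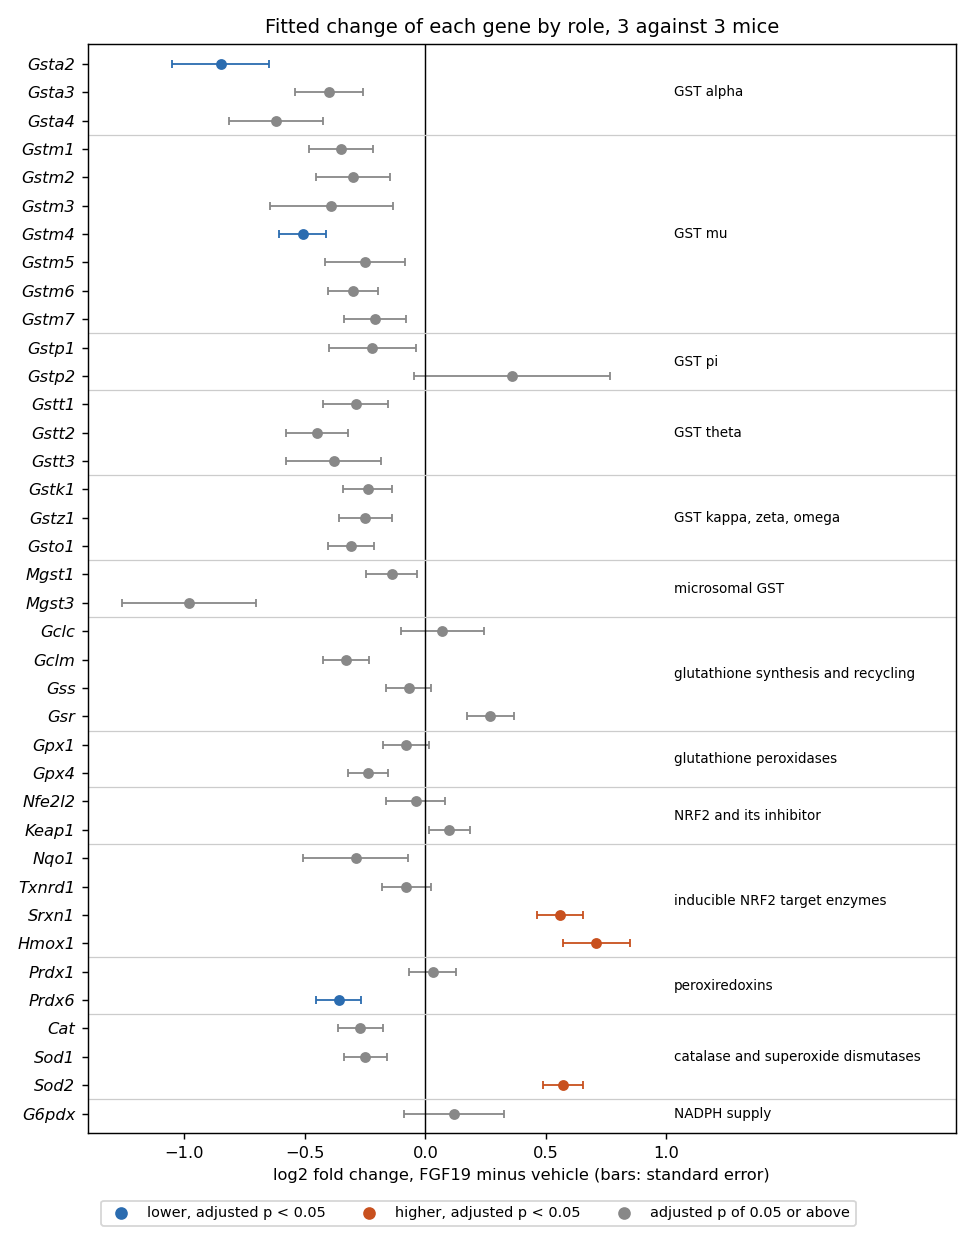
Log2 fold change of FGF19 against vehicle for each gene, with its standard error from edgeR's fit of 3 against 3 mice, grouped by role. Blue points (Gsta2, Gstm4, Prdx6) were lower and orange points (Srxn1, Hmox1, Sod2) higher at an adjusted p under 0.05, and grey points did not pass.

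The enzymes that make and recycle glutathione had values in both directions, and none of the 4 passed. Gclc and Gclm encode the catalytic and the modifier subunit of glutamate-cysteine ligase, the rate-limiting enzyme. Gclc was at 244, 174 and 258 CPM with vehicle and at 258, 264 and 185 CPM with FGF19, a log2 fold change of 0.07 (SE 0.172, adjusted p = 0.856, edgeR) whose sign turned in 3 of the 6 fits that left out a library. Gclm was at 124, 105 and 124 CPM with vehicle and at 97.3, 95.4 and 87.5 CPM with FGF19.

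The Gclm groups did not overlap, with a log2 fold change of -0.33 (SE 0.0964, adjusted p = 0.0714, edgeR). With DESeq2 and with edgeR's likelihood ratio test its adjusted p was 0.0456 and 0.0495 (0.0456 to 0.244 over all alternatives). Gss, glutathione synthetase, had a log2 fold change of -0.07 (SE 0.0925). Gsr, glutathione reductase, had 3 FGF19 values above the 3 vehicle values, at 91.7 ± 5.39 against 76.0 ± 7.06 CPM (SD, n = 3), and did not pass (log2 fold change 0.27, SE 0.0964, adjusted p = 0.126, edgeR).

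Neither Nfe2l2 nor Keap1 passed the test. Nfe2l2, from 75513576 to 75542698 on chromosome 2, was at 58.1, 43.1 and 44.1 CPM with vehicle and at 44.8, 48 and 48.8 CPM with FGF19, with a log2 fold change of -0.04 (SE 0.122, adjusted p = 0.890, edgeR). Its value was 0.11 without vehicle replicate 1, the highest of the 6 mice. Keap1, from 21034174 to 21043776 on chromosome 9, was at 68.8, 61.7 and 63.3 CPM with vehicle and at 66.7, 73.1 and 68.0 CPM with FGF19, with a log2 fold change of 0.10 (SE 0.0856, adjusted p = 0.545, edgeR). These are mRNA levels, and NRF2 activity is set largely by the stability of its protein, which was not measured here.

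The enzymes often used as readouts of NRF2 did not move together. Srxn1, from 151931466 to 151937089 on chromosome 2, was at 68.2, 56.1 and 63.7 CPM in vehicle replicates 1, 2 and 3 and at 87.6, 95.5 and 93.7 CPM in FGF19 replicates 1, 2 and 3. The lowest FGF19-treated mouse was well above the highest vehicle-treated mouse. The log2 fold change was 0.56 (SE 0.0958, adjusted p = 0.00908, edgeR), a 1.47-fold rise, and it passed in each of the 13 alternatives (adjusted p between 0.000104 and 0.0478).

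Hmox1, from 77617517 to 77624492 on chromosome 8, was at 13.2, 15.4 and 18.9 CPM with vehicle and at 24.3, 28.7 and 24.5 CPM with FGF19. All FGF19-treated mice were above all vehicle-treated mice, and the log2 fold change was 0.71 (SE 0.140, adjusted p = 0.0166, edgeR). Without vehicle replicate 1, vehicle replicate 2 or FGF19 replicate 2 the adjusted p was 0.0531, 0.0536 and 0.0695, and over all alternatives it was between 0.000267 and 0.0695. Hmox1 is also made by Kupffer cells, the macrophages of the liver. The summed level of 10 Kupffer cell markers was between 302 and 367 CPM in vehicle-treated mice and between 280 and 354 CPM in FGF19-treated mice, with Marco called higher (log2 fold change 2.29), Cd163 called lower (log2 fold change -1.09) and 8 not called. A list of 9 neutrophil and monocyte markers summed to between 2.00 and 2.68 CPM with vehicle and between 5.57 and 7.49 CPM with FGF19, where 2 of the 9 were tested and S100a9 was called higher. The part of these cells in the Hmox1 result was not tested.

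Nqo1 and Txnrd1 did not pass. Nqo1, a quinone reductase, was at 10.4, 5.88 and 8.09 CPM with vehicle and at 7.40, 7.17 and 5.39 CPM with FGF19, a log2 fold change of -0.29 (SE 0.216, adjusted p = 0.471, edgeR). Txnrd1, cytosolic thioredoxin reductase, was at 132, 111 and 122 CPM with vehicle and at 112, 127 and 106 CPM with FGF19, a log2 fold change of -0.08 (SE 0.102, adjusted p = 0.683, edgeR). The groups overlapped in both genes. With these standard errors a small change in either direction cannot be told from none.

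**Figure D4:**
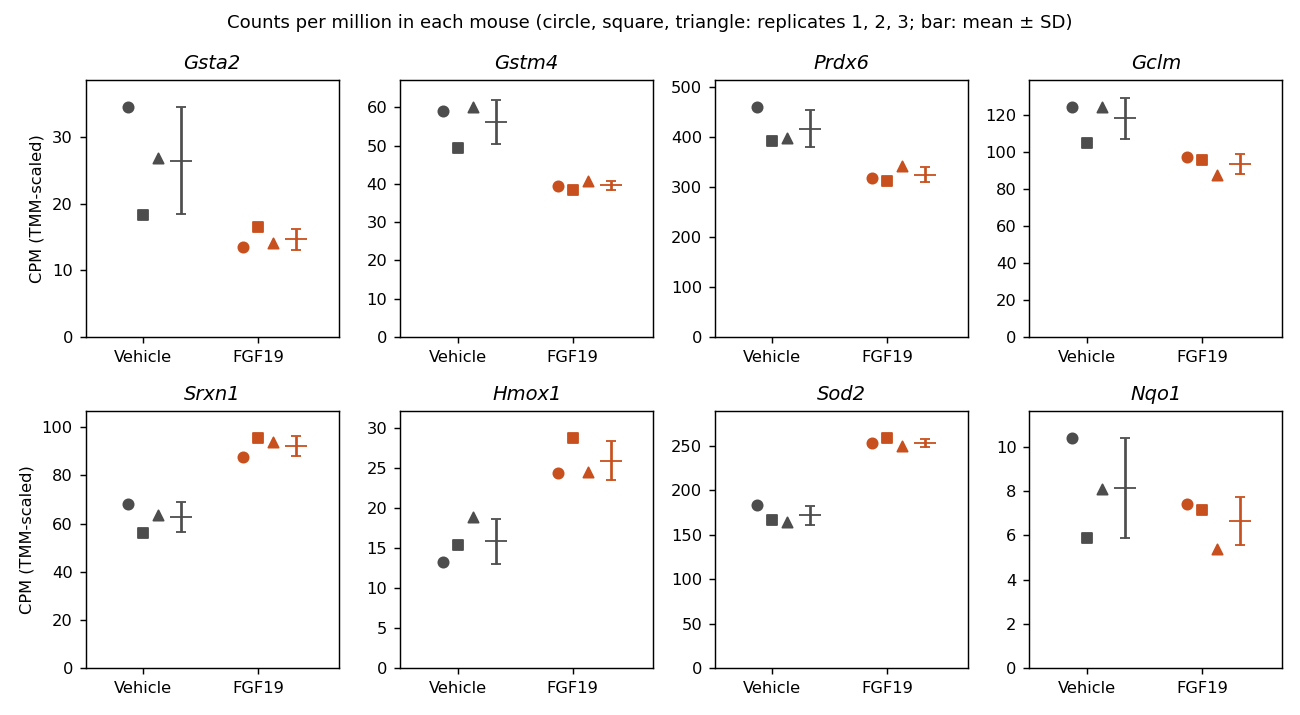
CPM of 8 genes in each mouse, with the mean and SD of each group of 3 beside the points and axes that start at 0. Srxn1, Hmox1 and Sod2 are higher and Gsta2, Gstm4, Prdx6 and Gclm lower in all FGF19-treated mice (the Gclm change did not pass an adjusted p of 0.05), while the groups overlap for Nqo1.

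To show where an antioxidant response element could be read by NRF2 close to these genes, its core TGACNNNGC was searched on both strands in RefSeq promoter windows (GRCm38.p6, 250 bases before to 50 after a start). Of the 38 genes 32 had a window, and 11 of these 32 (34.4%) held the core, against 14.0% of the 27025 genes with a window. The 38 include known NRF2 targets, so this share describes the choice of genes. Of the called genes with a window, Srxn1 held a core and Gsta2, Gstm4 and Sod2 did not. The stretches below give the core and its flanks, 5′ to 3′ on the strand of the gene, with the core in capitals, for Srxn1, for Gclm, Txnrd1, Prdx1 and Gsta3, which did not pass the test, and for Nfe2l2 itself.
Srxn1 (chr2:152105542-152105570, + strand, core 29 bases after the start): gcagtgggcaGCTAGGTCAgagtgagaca
Gclm (chr3:122245413-122245441, + strand, core from 134 bases before the start): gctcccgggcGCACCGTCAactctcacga
Txnrd1 (chr10:82859104-82859132, + strand, core from 92 bases before the start): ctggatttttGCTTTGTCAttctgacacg
Prdx1 (chr4:116685456-116685484, + strand, core from 133 bases before the start): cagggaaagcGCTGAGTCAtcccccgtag
Gsta3 (chr1:21240454-21240482, + strand, core from 121 bases before the start): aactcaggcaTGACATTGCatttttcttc
Nfe2l2 (chr2:75704885-75704913, - strand, core from 240 bases before the start): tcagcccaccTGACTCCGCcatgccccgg
In Srxn1, Gclm, Txnrd1 and Prdx1 the core is on the opposite strand, so the capitals show its reverse complement. A match describes these letters only, and elements farther from the start lie outside these windows.

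Of the peroxidases, Gpx1 and Gpx4 had log2 fold changes of -0.08 and -0.24 (adjusted p = 0.703 and 0.114, edgeR). Gpx4, which reduces lipid hydroperoxides in membranes, was at 211 ± 7.40 CPM (SD, n = 3) in the vehicle group and 178 ± 9.81 CPM (SD, n = 3) in the FGF19 group, without overlap. Prdx6, from 163170243 to 163181297 on chromosome 1, was at 460, 393 and 398 CPM with vehicle and at 318, 313 and 342 CPM with FGF19. The groups stood apart, with a log2 fold change of -0.36 (SE 0.0939, adjusted p = 0.0487, edgeR). That call was near the threshold and was lost without any library except FGF19 replicate 3, with an adjusted p of 0.192 without FGF19 replicate 2 (0.0122 to 0.192 over all alternatives). Prdx1, the substrate of sulfiredoxin in the cytosol, was at 689 ± 64.8 CPM (SD, n = 3) in the vehicle group and 702 ± 40.3 CPM (SD, n = 3) in the FGF19 group, a log2 fold change of 0.03 (SE 0.0986).

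The superoxide dismutases turn superoxide into hydrogen peroxide, which catalase breaks down. Sod2, from 13200705 to 13210985 on chromosome 17, was at 184, 167 and 164 CPM in vehicle replicates 1, 2 and 3 and at 254, 259 and 250 CPM in FGF19 replicates 1, 2 and 3. The 3 FGF19-treated mice were within a narrow range and all above the vehicle-treated mice. Its log2 fold change was 0.57 (SE 0.0833, adjusted p = 0.00412, edgeR), the smallest adjusted p of the 38, and it passed in each of the 13 alternatives (2.71e-06 to 0.0349). Sod2 is known as a gene that inflammatory cytokines induce through NF-kappaB, besides its role in mitochondria.

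Sod1, the cytosolic enzyme, and Cat both had FGF19 values below the vehicle values without overlap and did not pass. Sod1 was at 807 ± 33.3 and 679 ± 45.1 CPM (SD, n = 3), a log2 fold change of -0.25 (SE 0.0895, adjusted p = 0.131, edgeR). Cat was at 3677 ± 46.1 and 3051 ± 190 CPM (SD, n = 3), a log2 fold change of -0.27 (SE 0.0930, adjusted p = 0.118, edgeR). G6pdx, which supplies NADPH, was at 3.99 ± 0.832 and 4.34 ± 0.738 CPM (SD, n = 3), and the fitted log2 fold change of 0.12 did not pass (adjusted p = 0.780, edgeR).

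**Figure D5:**
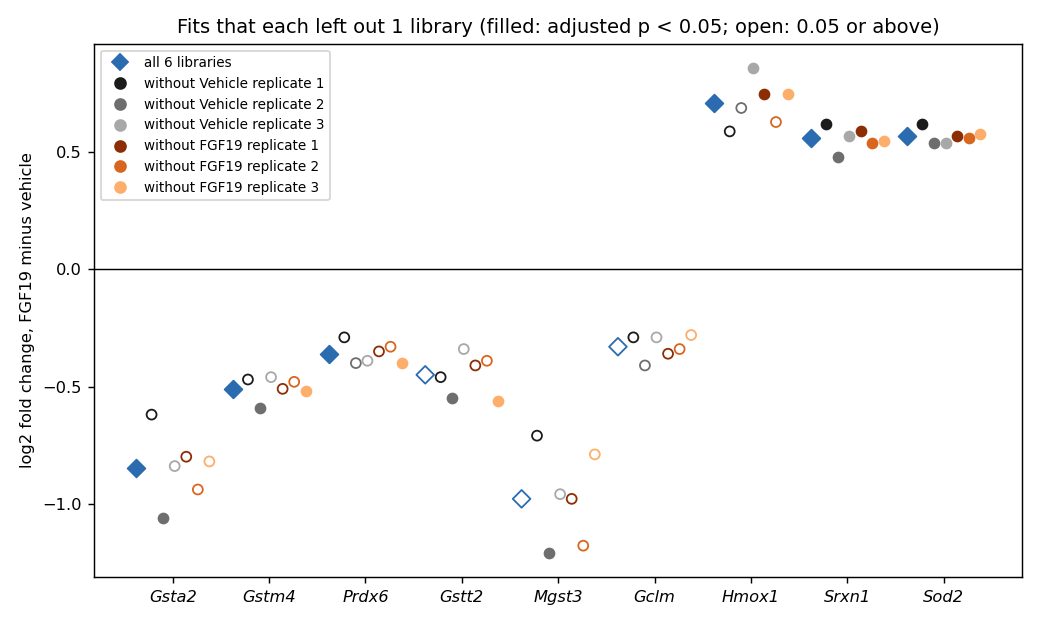
Log2 fold change of 9 genes in the fit of all 6 libraries (diamonds) and in the 6 fits that each left out 1 library (circles), with filled marks at an adjusted p under 0.05. Srxn1 and Sod2 stay filled in all fits, Hmox1 in 3 of the 6, Gstm4 in 2 and Gsta2 and Prdx6 in 1 each.

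Other genes of the same pathways were taken from lists drawn up by known role. Of 73 such genes in the files 65 were tested, of which 3 fell and 4 rose at an adjusted p under 0.05, with a median log2 fold change of -0.07. These are 4.62% and 6.15% of the 65, near the 2.84% and 4.56% of all genes tested and the 3.86% and 5.16% of those at 10 CPM or more. The genes that fell were Chac2, which degrades glutathione in the cytosol (log2 fold change -0.65, SE 0.125, adjusted p = 0.0147, edgeR), Hagh, a glyoxalase that uses a glutathione thioester (-0.45), and Idh2, which supplies NADPH in mitochondria (-0.39). The genes that rose were Maff, a small MAF protein (log2 fold change 1.08, SE 0.196, adjusted p = 0.0114, edgeR), Bach2 (0.84), Sesn2 (0.58), a stress-induced regulator of mTORC1, and Anpep (0.35), a peptidase that acts on a breakdown product of glutathione.

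Maff was at 2.38, 2.28 and 2.58 CPM with vehicle and at 5.68, 5.70 and 3.98 CPM with FGF19. All FGF19-treated mice were above all vehicle-treated mice, as in 6 of the 65 genes (9.23%, against 14.5% of all genes tested), while in 20 of the 65 they were all below (30.8%, against 13.8%). Leaving out FGF19 replicate 1 or 2 left 0 genes called higher in edgeR's quasi-likelihood test, with 4 genes higher at an unadjusted p under 0.05 in each, and leaving out vehicle replicate 3 or FGF19 replicate 2 left 0 called lower, with 14 and 11 genes lower at an unadjusted p under 0.05. Without vehicle replicate 1, 2 or 3 there were 1, 2 and 1 genes called higher. Without vehicle replicate 1 there was 1 called lower, which was Sod3, while Chac2, Hagh and Idh2 lost the call. Without FGF19 replicate 3 there were 15 called lower. Over all genes tested, the count of higher genes fell from 573 to 295 and 276 without FGF19 replicate 1 or 2, and to 323, 398 and 236 without vehicle replicate 1, 2 or 3. Txn1 (thioredoxin) and Mafg did not pass, with log2 fold changes of 0.19 and -0.21 (adjusted p = 0.231 and 0.275, edgeR). Slc7a11, the cystine carrier and a strongly induced NRF2 target in many cell types, had 0 counts in 5 libraries and 2 counts in FGF19 replicate 2, and was left out by the filter.

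The libraries had the markers of liver. Summed over 8 hepatocyte markers, the level was between 99661 and 104249 CPM with vehicle and between 93482 and 102959 CPM with FGF19, and none of the 8 was called (median log2 fold change -0.14, 6 of the 8 lower; with edgeR's quasi-likelihood test 2 were lower and 1 higher at an unadjusted p under 0.05). The 6 cholangiocyte markers summed to between 72.3 and 89.8 CPM with vehicle and between 56.4 and 87.2 CPM with FGF19. Erythroid cells also express Cat, Prdx6 and Gpx1. The 4 globin genes of the list are listed at 0 in all libraries, and these zeros are not read as an absence of erythroid RNA. Whether reads with several places in the genome, which were not counted, set them was not tested. Alas2, which starts heme synthesis in these cells, was at 71.0 ± 12 CPM (SD, n = 3) in the vehicle group and 49.8 ± 7.08 CPM (SD, n = 3) in the FGF19 group, with a log2 fold change of -0.51 that passed p under 0.01 but not the adjusted threshold (adjusted p = 0.0645, edgeR). The part of these cells in the results above was not tested.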

How the data were processed

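Liver RNA of 6 mice was sequenced as paired reads of 100 bases. The authors aligned the reads to mm9 with STAR (2.5.3a in the submitters' processing notes) and deposited raw counts per gene from featureCounts 1.5.2, counted without strand, with each mate counted separately and reads aligned to several places left out. A deposited table of the authors' own comparison (log2 fold changes, mean log2 CPM, p-values and false discovery rates) was not used. The 38 genes and the other gene lists were chosen with earlier results of these data known.

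Counts were tested with edgeR 4.0.16 in R 4.3.3 (filterByExpr, TMM scaling with factors from 0.964 to 1.03, glmQLFTest), and p-values were adjusted by Benjamini-Hochberg over 12559 genes. The standard error is the absolute log2 fold change divided by the root of the F statistic. CPM are TMM-scaled, and RPKM divide CPM by the exon length in the files. A count of 3, the upper limit that a count of 0 allows, was between 0.131 and 0.158 CPM and covers counting error only. Values are given in every mouse for those of the 38 genes at an adjusted p under 0.05 or p under 0.01, for Nfe2l2 and Keap1 and for Nqo1, Gclc, Gclm, Txnrd1, Srxn1 and Hmox1; those of Gsta3, Gstm1, Gstp1 and Maff were added after their values were seen. Of the other lists, up to 10 genes called at a mean of at least 1 CPM were named by size of change, with Slc7a11, Txn1 and Mafg.

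Each mouse is 1 library, and p-values set the group difference against the spread between these mice. The spread used for a gene is in part borrowed from the other genes tested. An exact two-sided permutation test of 3 against 3 cannot go below 0.1 and was not used. Libraries of the same group differed by more than sampling noise (chi-square per degree of freedom from 8.25 to 39.4), so none was counted as a repeat. The settings tried besides were library sizes without TMM, DESeq2 1.42.0, testing without the filter, a filter of 1 CPM in every library, edgeR's likelihood ratio test, limma-voom (limma 3.58.1), the replicate number as a block, and leaving out each library. The fits were tested on simulated data.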

Additional observations from a re-analysis of the deposited data

How the results depend on the processing

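Over the alternatives without a left-out library, the number of the 38 genes called lower at an adjusted p under 0.05 was 7 with DESeq2, 5 without a filter, 7 with the likelihood ratio test and 3 with the others except the replicate block, and the number called higher was 3 in each. Over all genes fitted, 512 of 16890 were lower with DESeq2, 395 of 16890 without a filter and 579 of 12559 with the likelihood ratio test, against 357 of 12559. The 16890 are all genes with a count. DESeq2's default filter can leave some of them without an adjusted p, so its share over all genes can be understated. At p under 0.01, 11 of the 38 were lower with DESeq2, against 7 with edgeR's quasi-likelihood test of all libraries. The share of all genes at p under 0.01 was taken only for that test (4.98% lower). Counts at p under 0.01 in the other settings therefore cannot be told from a general change in calls. Leaving out 1 library gave 0 to 9 lower and 2 to 4 higher genes at an adjusted p under 0.05 and 2 to 11 lower genes at p under 0.01, and moved the median log2 fold change between -0.30 and -0.14. Of the other pathway genes, 8 were lower with DESeq2 and 8 with the likelihood ratio test, and leaving out 1 library gave 0 to 15 lower and 0 to 5 higher. Ranges by gene were taken only for the members called or at p under 0.01, for Nfe2l2 and Keap1 and for the NRF2 readouts. Among these the sign turned for Gclc (-0.09 to 0.22) and Nfe2l2 (-0.12 to 0.11) when 1 library was left out. Gstp2 also turned without FGF19 replicate 3, where all 20 transferases had a lower fitted mean. The cause of these differences was not tested. Libraries with the same replicate number did not visibly deviate together (correlations of -0.0313, -0.181 and -0.182, against -0.128 to 0.23 for different numbers). With 3 mice per group this cannot exclude that the numbers pair the mice. With the replicate block, 1 of the 38 genes was lower at an adjusted p under 0.05 and 4 at p under 0.01, 3 were higher, and of the other pathway genes 1 was lower and 1 higher, where over all genes tested 164 were lower and 370 higher. Nqo1, Gstp2 and G6pdx varied by 28.0%, 22.3% and 20.9% of their mean between the vehicle-treated mice, and a p that misses the threshold does not show that they did not change.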
